A study of Mus musculus with 30 samples.

Results

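The genes described here are 10 genes of innate sensing and the IL-1 pathway, taken by symbol from the count table of 55450 genes, and all 10 were found. They are the receptors Tlr2 and Tlr4 with the co-receptors Cd14 and Ly96, the inflammasome sensor Nlrp3, the protease Casp1, the cytokines Il1b and Il18, the receptor antagonist Il1rn, and Tnfaip3. The study sequenced poly(A) RNA from livers of male mice with and without Cebpa in hepatocytes, in 3 experiments with 1 stranded library per mouse and 5 mice per group, so 30 libraries in 6 groups. All mice carried Cebpa fl/fl and were fed HFCFD, a diet rich in fat, cholesterol and fructose that leads to steatohepatitis, and no chow-fed mice are part of these libraries. In HFCFD2W, Cebpa fl/fl mice without Cre and CebpaΔHep mice with albumin-cre, which deletes Cebpa from development on, had 2 weeks of HFCFD. In HFCFD8W+T10D, mice had 8 weeks of HFCFD and 10 days of tamoxifen, and in HFCFD12W+T10W 12 weeks of HFCFD followed by 10 weeks of HFCFD with tamoxifen. The knockout mice of these last 2 experiments were CebpaΔHep,ERT2 mice with albumin-ERT2-cre, in which tamoxifen starts the deletion in the adult, and their Cebpa fl/fl controls without Cre received tamoxifen too. Age was not given in the sources used here. Diet time and tamoxifen differ between all experiments, and HFCFD2W differs from the other 2 in Cre line as well. These cannot be told apart, also not from a batch, which the labels do not name, so genotypes were compared within an experiment.

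As background, Toll-like receptors on the cell surface read microbial products and products of damaged cells. TLR2 reads lipoproteins, and TLR4 reads lipopolysaccharide that CD14 hands over to it and its partner MD-2, the product of Ly96. Their signal runs through NF-kappaB and raises the mRNA of Il1b and Nlrp3. The NLRP3 inflammasome then activates caspase-1, the product of Casp1, which cuts the precursors of IL-1β and IL-18 into their active forms. IL-1 receptor antagonist, from Il1rn, occupies the IL-1 receptor without signaling, and A20, from Tnfaip3, is a ubiquitin-editing enzyme that dampens NF-kappaB. In liver, several of these genes are known from Kupffer cells and recruited monocytes and neutrophils, but not only from them. Bulk liver RNA does not show which cells their mRNA came from.

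The libraries held 7996123 to 10257347 counts. Cebpa itself, in CPM (counts relative to the scaled library total, mean ± SD, n = 5), was 177 ± 17.7 in Cebpa fl/fl and 4.74 ± 0.902 in knockout livers of HFCFD2W. It was 144 ± 13.4 and 17.2 ± 5.92 CPM after 10 days of tamoxifen and 114 ± 23 and 21.2 ± 1.97 CPM after 10 weeks, and every knockout library was below every control of its experiment. The hepatocyte marker Alb was the most abundant gene of the hepatocyte list in all groups. In bulk liver RNA, fewer cells of a type and less RNA per cell cannot be told apart.

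The stretch of DNA before a gene's start site is shown for 4 of the genes, Il1b and its antagonist Il1rn, which are set side by side per mouse, and Tlr2 and Tnfaip3, whose windows held an NF-kappaB motif. Sequences are from RefSeq (GRCm38.p6), 5′ to 3′ on the strand of the gene, limited to the longest part of a 300-base window around the start site that lies outside annotated exons, and capitals mark motif matches. Il1b is chr2:129371140-129371389 (minus strand, 250 bases) and Il1rn is chr2:24336610-24336852 (plus strand, 243 bases). Tlr2 is chr3:83841768-83841858 (minus strand, 91 bases) and Tnfaip3 is chr10:19015411-19015547 (minus strand, 137 bases). The Tnfaip3 stretch lies before a RefSeq start site at 19015410, but inside the annotated gene, which begins at 19015657 on that strand.
Il1b: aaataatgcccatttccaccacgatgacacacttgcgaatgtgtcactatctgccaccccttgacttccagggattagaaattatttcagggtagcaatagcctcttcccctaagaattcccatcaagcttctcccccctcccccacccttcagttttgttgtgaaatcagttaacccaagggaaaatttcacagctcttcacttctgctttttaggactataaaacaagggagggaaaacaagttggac
Il1rn: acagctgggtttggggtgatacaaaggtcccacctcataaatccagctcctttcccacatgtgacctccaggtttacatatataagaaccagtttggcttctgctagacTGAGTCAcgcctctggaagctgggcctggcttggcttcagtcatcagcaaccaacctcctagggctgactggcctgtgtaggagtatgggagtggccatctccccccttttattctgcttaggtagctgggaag
Tlr2: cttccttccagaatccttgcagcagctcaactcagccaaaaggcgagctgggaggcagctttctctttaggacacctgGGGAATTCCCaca
Tnfaip3: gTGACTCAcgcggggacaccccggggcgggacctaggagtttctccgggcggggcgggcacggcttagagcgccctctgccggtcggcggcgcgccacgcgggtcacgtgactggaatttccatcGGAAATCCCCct
Motifs were searched on both strands as C/EBP TTNNGCAA, NF-kappaB (GGG, 2 free bases, TT, 1 free base, then CC), AP-1 TGANTCA and PU.1 GAGGAA, where N is any base, and no match shown overlaps another. Of the genes described here, 7 had RefSeq windows, 11 windows in all, and Tlr4, Cd14 and Ly96 had no entry. A match to NF-kappaB was in windows of 4 of the genes (Tlr2, Tnfaip3, Nlrp3 and, within an exon, Il1rn), to AP-1 in 2 (Il1rn and Tnfaip3), to PU.1 in 2 (Casp1 and Nlrp3) and to C/EBP in 0. Of all 32851 windows of 300 bases, 4.79% held the NF-kappaB, 7.81% the AP-1, 28.3% the PU.1 and 10.8% the C/EBP motif. These shares are per window, while the counts are per gene, and a gene can have several windows. The C/EBP pattern misses the Spp1 promoter element that the paper reports CEBPA to bind, so a lack of matches does not show a lack of sites. All matches describe letters in the window and are not measured binding sites.

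**Figure D1:**
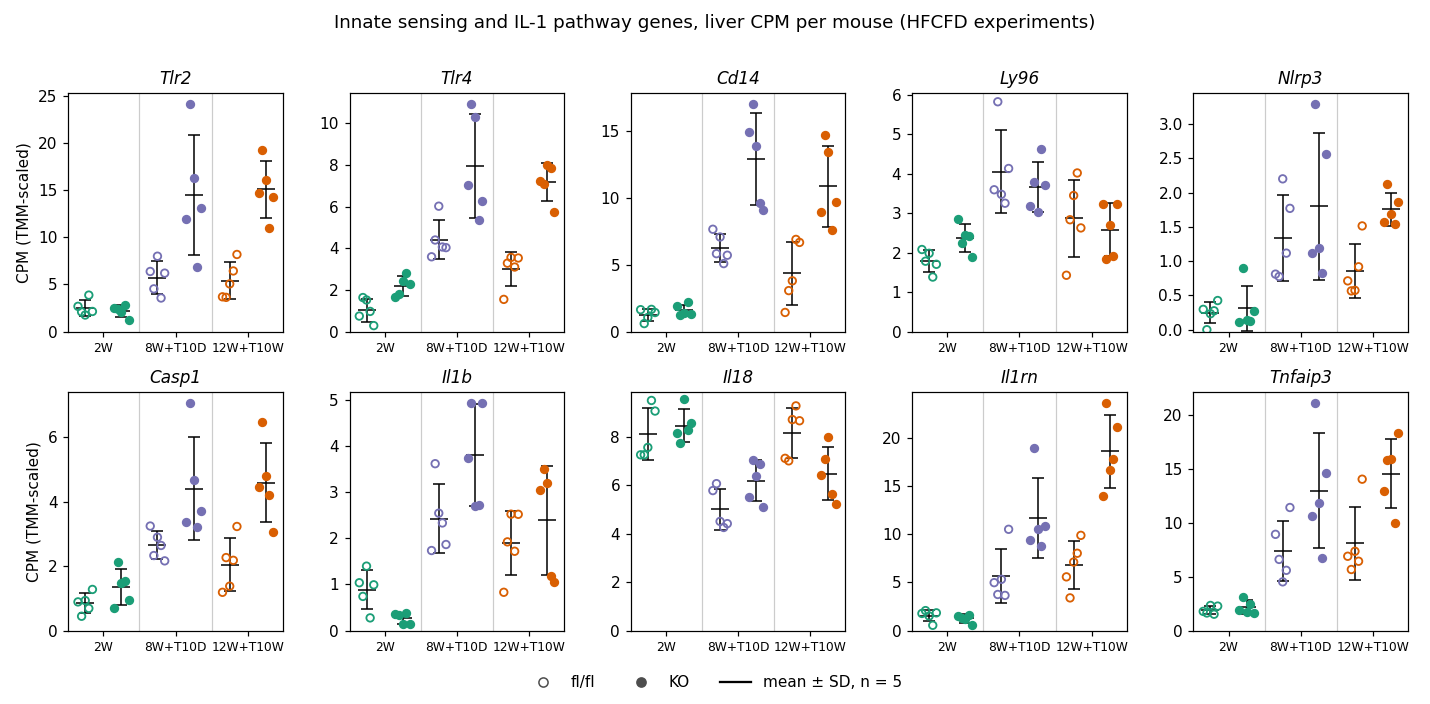
Level of each gene in the liver of each mouse, in CPM on a linear axis, by experiment; open points are Cebpa fl/fl and filled points knockout mice, and bars give the mean and SD of 5 mice. Tlr2, Tlr4, Cd14, Nlrp3 and Il1rn lie above all their controls in knockout livers of HFCFD12W+T10W, as do 19.5% of all genes tested there. Ly96, Casp1, Il1b, Il18 and Tnfaip3 overlap.

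Levels of different genes were compared per transcript length, in TPM, a level scaled by transcript length and library total, as deposited. In Cebpa fl/fl livers of HFCFD2W, Il18 had the highest level of the 10, 12.6 ± 1.07 TPM (SD, n = 5), followed by Ly96 at 4.09 ± 0.796 TPM. The other 8 genes were near or under 1 TPM there, down to Nlrp3 at 0.0580 ± 0.0363 TPM. In knockout livers of HFCFD12W+T10W the order was another. Il1rn led at 22.4 ± 4.63 TPM, then Il18 at 17.4 ± 2.75, Cd14 at 12.8 ± 3.47, Ly96 at 9.99 ± 2.45 and Tlr2 at 8.59 ± 1.84 TPM. Il1b was at 3.36 ± 1.66 TPM and Nlrp3 was the lowest in that group as well, at 0.814 ± 0.143 TPM. All of these are low-abundance mRNAs in whole liver: the highest count of any of them in a library was 294, for Tlr2 in HFCFD8W+T10D knockout mouse 2.

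Genotypes were compared with edgeR (quasi-likelihood, p adjusted by Benjamini-Hochberg over the whole table), and an adjusted p under 0.05 counts as a call. In HFCFD2W, 1 of the 7 genes with enough counts for the test, Tlr4, was higher in CebpaΔHep livers and 0 were lower, where 8.6% of 11068 genes tested were called higher and 8.09% lower. In HFCFD8W+T10D, 4 of 10 (Tlr2, Tlr4, Cd14 and Il1rn) were higher and 0 lower, beside 10.3% of 11990 genes called higher and 6.85% lower. In HFCFD12W+T10W, 7 of 10 (those 4, Casp1, Nlrp3 and Tnfaip3) were higher and 0 lower, beside 27.4% of 12463 genes called higher and 23.8% lower. The median log2 fold change of the genes tested was 0.19, 0.79 and 1.12 in the 3 experiments, while that of all genes was 0.01 in each. With a fold change over 2 asked as well, 1, 3 and 6 of the genes were higher, beside 1.69%, 4.09% and 14.3% of all genes. The count of HFCFD8W+T10D fell to 2 when knockout mouse 2, knockout mouse 3 or Cebpa fl/fl mouse 4 was left out.

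**Figure D2:**
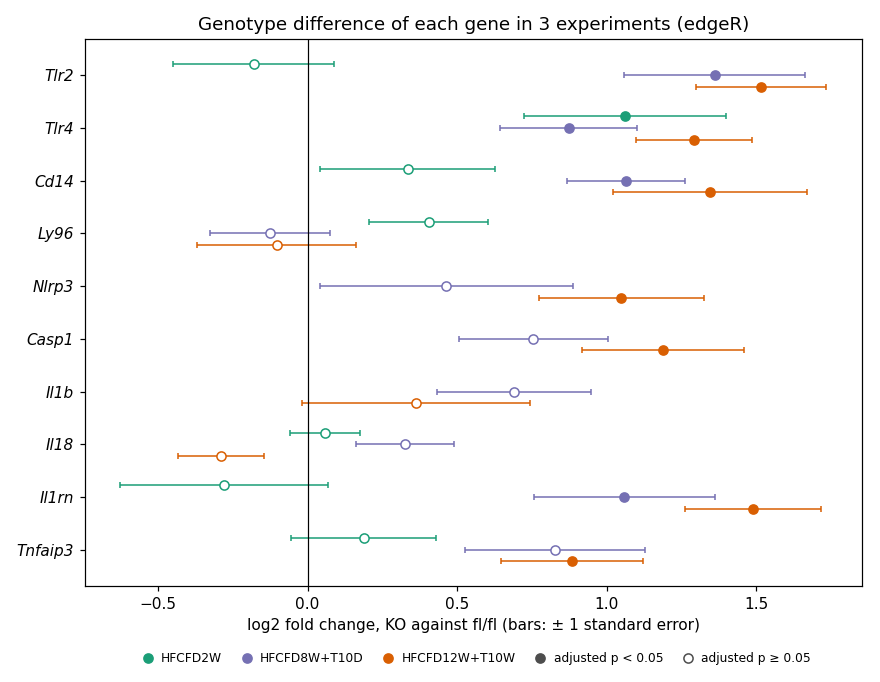
Log2 fold change of each gene, knockout against Cebpa fl/fl, with bars of 1 standard error, in the 3 experiments; filled points are called by edgeR at an adjusted p under 0.05, and Il1b, Casp1 and Nlrp3 have no point in HFCFD2W because too few counts were measured. The filled points are Tlr4 in all 3 experiments, Tlr2, Cd14 and Il1rn in the 2 tamoxifen experiments, and Nlrp3, Casp1 and Tnfaip3 in HFCFD12W+T10W.

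Tlr2 (chr3:83836272-83841767 in GRCm38), the receptor for lipoproteins, was measured at 3.68, 3.62, 5.05, 6.42 and 8.17 CPM in the 5 Cebpa fl/fl mice of HFCFD12W+T10W and at 14.7, 19.3, 16.1, 11 and 14.3 CPM in the 5 CebpaΔHep,ERT2 mice. Every knockout mouse was above every control mouse, as for 19.5% of all genes tested in that experiment. The fold change was 2.86 (log2 1.52 ± 0.22 SE, adjusted p = 9.37e-05). In HFCFD8W+T10D, Tlr2 was at 6.37, 4.52, 7.99, 3.55 and 6.19 CPM in controls and at 11.9, 24.2, 16.2, 6.87 and 13.1 CPM in knockout mice. Only knockout mouse 4 lay within the control range, and the log2 fold change was 1.36 ± 0.30 (adjusted p = 0.00975). In HFCFD2W the groups overlapped throughout, with means of 2.5 ± 0.832 and 2.18 ± 0.610 CPM and a log2 fold change of -0.18 ± 0.27 (adjusted p = 0.70).

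Tlr4 (chr4:66827584-66930284), the lipopolysaccharide receptor, was the gene called higher in all 3 experiments. In HFCFD2W it was at 0.742, 1.63, 1.51, 0.965 and 0.284 CPM in Cebpa fl/fl and at 1.66, 1.79, 2.43, 2.81 and 2.28 CPM in CebpaΔHep mice. The groups did not overlap, as for 6.33% of all genes tested in that experiment, but the lowest knockout and highest control mouse differed by less than 0.05 CPM and control counts ran from 2 to 13. The log2 fold change was 1.06 ± 0.34 (adjusted p = 0.0478), a call that was lost in 7 of the 10 fits that left out 1 mouse, with adjusted p up to 0.106. In HFCFD8W+T10D, controls were at 3.59, 4.40, 6.02, 4.06 and 4.03 CPM and knockout mice at 7.02, 10.9, 10.3, 5.33 and 6.26 CPM. Knockout mouse 4 was within the control range, and the log2 fold change was 0.87 ± 0.23 (adjusted p = 0.0202). Without knockout mouse 2, knockout mouse 3 or Cebpa fl/fl mouse 4, the adjusted p rose to at most 0.0548. In HFCFD12W+T10W the groups were apart, at 1.54, 3.28, 3.56, 3.10 and 3.53 CPM against 7.22, 7.10, 8.01, 7.83 and 5.74 CPM, a log2 fold change of 1.29 ± 0.19 (adjusted p = 0.000136).

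Cd14 (chr18:36725067-36726798), which delivers lipopolysaccharide to TLR4, was at 7.64, 5.82, 7.06, 5.08 and 5.70 CPM in controls of HFCFD8W+T10D and at 14.9, 17, 13.9, 9.60 and 9.11 CPM in knockout mice. The groups did not overlap, as for 6.01% of all genes tested there, and the log2 fold change was 1.06 ± 0.20 (adjusted p = 0.00353). In HFCFD12W+T10W it was at 1.42, 3.06, 3.79, 6.88 and 6.66 CPM in controls and at 8.97, 14.7, 13.4, 7.56 and 9.69 CPM in knockout mice, again without overlap. Control mouse 1 was the lowest there, and the log2 fold change was 1.34 ± 0.33 (adjusted p = 0.00395). In HFCFD2W, Cd14 was near 1 CPM in both genotypes, 1.27 ± 0.449 and 1.60 ± 0.410 CPM (log2 fold change 0.33 ± 0.29, adjusted p = 0.47).

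Ly96 (chr1:16688051-16709611), the partner that TLR4 needs to bind lipopolysaccharide, did not pass the test in any experiment. Its log2 fold change was 0.41 ± 0.20 after 2 weeks of diet, and -0.13 ± 0.20 and -0.10 ± 0.27 in the tamoxifen experiments (adjusted p = 0.21, 0.72 and 0.77). In the last experiment, controls ran from 1.42 to 4.01 CPM and knockout mice from 1.84 to 3.23 CPM, fully inside the control range. In the same livers Tlr4 and Cd14 were called, and the difference between these genes and Ly96 was not tested.

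Nlrp3 (chr11:59541568-59566956), the inflammasome sensor, was at 0.712, 0.566, 0.574, 0.918 and 1.51 CPM in controls of HFCFD12W+T10W and at 1.57, 2.12, 1.69, 1.55 and 1.86 CPM in knockout mice. The groups were apart, although control mouse 5 came close to the lowest knockout mice, and the log2 fold change was 1.05 ± 0.28 (adjusted p = 0.0066). In HFCFD8W+T10D both groups spread widely, from 0.776 to 2.20 and from 0.830 to 3.29 CPM (log2 fold change 0.46 ± 0.42, adjusted p = 0.50). In HFCFD2W the 5 control libraries held 0 to 3 counts and the knockout libraries 1 to 8, with 9 and 13 counts in all, a ratio of 1.31 with a 95% counting interval of 0.519 to 3.48. At that depth, a change in Nlrp3 inside this interval could not be told from no change.

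Casp1 (chr9:5298517-5307265), the protease of the inflammasome, was at 1.19, 2.26, 1.38, 2.18 and 3.23 CPM in controls of HFCFD12W+T10W and at 4.44, 6.46, 4.80, 4.19 and 3.07 CPM in knockout mice. Control mouse 5 and knockout mouse 5 crossed, and the log2 fold change was 1.19 ± 0.27 (adjusted p = 0.00275). In HFCFD8W+T10D the means were 2.65 ± 0.434 and 4.40 ± 1.59 CPM, and the log2 fold change of 0.75 ± 0.25 missed the threshold (adjusted p = 0.0534). That value passed under upper quartile scaling, DESeq2 and the fit of all libraries, with adjusted p of 0.0428, 0.0405 and 0.0354, so it lay at the edge of the test. In HFCFD2W the counts were too low for the test, 31 in controls and 55 in knockout libraries in all, a ratio of 1.61 with a 95% counting interval of 1.02 to 2.59, and without a filter on low counts the log2 fold change was 0.67 ± 0.38 (adjusted p = 0.34).

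Il1b (chr2:129364570-129371139), the cytokine that caspase-1 activates, was not called for genotype in any experiment. In HFCFD2W it was at 1.04, 0.742, 1.40, 0.276 and 0.993 CPM in Cebpa fl/fl and at 0.355, 0.336, 0.135, 0.383 and 0.134 CPM in CebpaΔHep mice, so 4 of 5 control mice were above every knockout mouse. The knockout libraries held 1 to 3 counts each and 11 in all, against 33 in controls, a ratio of 0.303 with a 95% counting interval of 0.138 to 0.614 that covers counting error only. Without the filter, edgeR gave a log2 fold change of -1.66 ± 0.52 (adjusted p = 0.0513), and the fit of all libraries gave an adjusted p of 0.0421. In HFCFD8W+T10D, controls were at 1.74, 3.62, 2.55, 2.33 and 1.87 CPM and knockout mice at 3.74, 4.93, 2.71, 2.73 and 4.93 CPM, overlapping through control mouse 2 (log2 fold change 0.69 ± 0.26, adjusted p = 0.0853). In HFCFD12W+T10W, controls were at 0.831, 1.92, 2.53, 1.72 and 2.52 CPM and knockout mice at 3.05, 3.50, 3.20, 1.18 and 1.05 CPM. Knockout mice there fell apart, 3 above every control and 2 below all controls but mouse 1, and the log2 fold change was 0.36 ± 0.38 (adjusted p = 0.46).

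Il1rn (chr2:24336853-24351494), the antagonist of the IL-1 receptor, was at 5.58, 3.40, 7.12, 8.03 and 9.89 CPM in controls of HFCFD12W+T10W and at 13.9, 23.6, 16.7, 17.9 and 21.1 CPM in knockout mice. The groups were apart, and the fold change was 2.80 (log2 1.49 ± 0.23, adjusted p = 0.000146). In HFCFD8W+T10D, controls were at 4.98, 3.75, 5.33, 3.65 and 10.5 CPM and knockout mice at 9.36, 19, 10.5, 8.77 and 10.8 CPM. Control mouse 5 lay inside the knockout range, and the log2 fold change was 1.06 ± 0.30 (adjusted p = 0.0297). That call was lost in 6 of the 10 fits without 1 mouse (Cebpa fl/fl mouse 1, 2, 3 or 4, or knockout mouse 2 or 3), with adjusted p up to 0.0744. In HFCFD2W the means were 1.55 ± 0.595 and 1.26 ± 0.438 CPM (log2 fold change -0.28 ± 0.35, adjusted p = 0.63).

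Set side by side per transcript length, Il1rn and Il1b were close in HFCFD2W controls, with mean TPM of 1.01 and 0.842. In HFCFD12W+T10W they were at 5.52 and 2.01 TPM in controls, a ratio of the means of 2.75, and at 22.4 and 3.36 TPM in knockout mice, a ratio of 6.66. The ratios of HFCFD8W+T10D lay between, 1.84 in controls and 2.46 in knockout mice. By mouse, Il1rn was above Il1b in 4 of 5 mice in each of both HFCFD2W groups and in HFCFD8W+T10D controls, and in 5 of 5 mice in the other 3 groups. The ratio per mouse ran from 1.77 to 5.43 in controls and from 3.99 to 18.9 in knockout mice of HFCFD12W+T10W, and these ranges overlap. This pair was chosen after the values were seen and was not tested, and in HFCFD2W knockout mice the Il1b value rests on 3 counts or fewer per mouse. The exception there, mouse 6, had 1 count of Il1b against 4 of Il1rn, and its TPM of 0.81 for Il1b depends on the isoform length that RSEM assigned to that count.

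**Figure D3:**
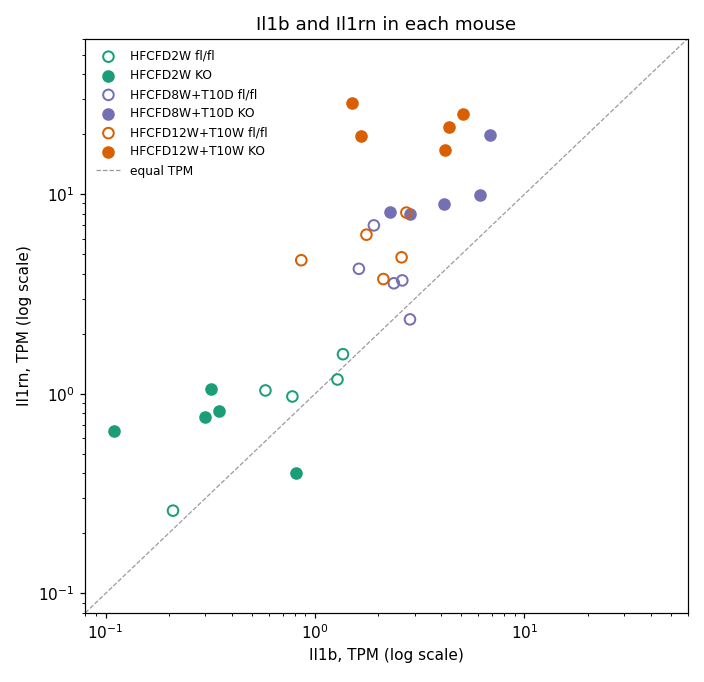
TPM of Il1rn against TPM of Il1b, 1 point per mouse, log axes, with the dashed line at equal TPM; open points are Cebpa fl/fl and filled points knockout mice. The knockout mice of HFCFD12W+T10W all lie above the line, with ratios from 3.99 to 18.9.

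Il18 (chr9:50554827-50581840), the other cytokine cut by caspase-1, was not called for genotype in any experiment. In HFCFD12W+T10W it was at 7.12, 7.02, 8.72, 9.29 and 8.68 CPM in controls and at 6.44, 7.10, 8.01, 5.65 and 5.25 CPM in knockout mice, so 3 knockout mice were below every control. The log2 fold change was -0.29 ± 0.14 (adjusted p = 0.11). In HFCFD8W+T10D the difference had the other sign, with means of 5.01 ± 0.850 and 6.19 ± 0.845 CPM (log2 fold change 0.32 ± 0.16, adjusted p = 0.20), and in HFCFD2W it was 0.06 ± 0.12 (adjusted p = 0.79). The sign in HFCFD12W+T10W depends on the scale, since in TPM the means were 16.1 ± 2.23 in controls and 17.4 ± 2.75 in knockout mice. Ly96 changed sign in the same way, from 8.43 ± 2.80 to 9.99 ± 2.45 TPM there and from 10.5 ± 1.61 to 11.2 ± 2.03 TPM in HFCFD8W+T10D. Each of the 7 genes called in HFCFD12W+T10W had a ratio of knockout to control means above 1 on both scales, from 1.80 (Tnfaip3) to 2.80 (Tlr2) in CPM and from 2.26 (Tnfaip3) to 4.05 (Il1rn) in TPM.

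Tnfaip3 (chr10:19000910-19015657), the inhibitor of NF-kappaB signaling, was at 6.89, 5.66, 7.35, 6.42 and 14 CPM in controls of HFCFD12W+T10W and at 12.9, 15.8, 15.8, 9.93 and 18.3 CPM in knockout mice. Control mouse 5 lay within the knockout range while the other 4 controls were below it, and the log2 fold change was 0.88 ± 0.24 (adjusted p = 0.00741). In HFCFD8W+T10D the log2 fold change was almost as large, 0.83 ± 0.30, but the mice spread from 4.51 to 11.4 and from 6.76 to 21.1 CPM and the adjusted p was 0.0772. It passed with DESeq2 and in the fit of all libraries there (adjusted p = 0.0455 and 0.0202). In HFCFD2W the means were 1.91 ± 0.372 and 2.17 ± 0.626 CPM (log2 fold change 0.19 ± 0.24, adjusted p = 0.65).

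Whether the effect of genotype itself differed between experiments was tested as an interaction in 1 edgeR fit of the 30 libraries. From HFCFD2W to HFCFD8W+T10D, the log2 fold change of 2 of 10 genes was higher, beside 4.45% of 12964 genes with a higher and 6.79% with a lower one. These were Tlr2, with a difference of 1.53 ± 0.45 in log2 fold change (adjusted p = 0.0258), and Il1b, with 2.34 ± 0.63 (adjusted p = 0.0151). From HFCFD2W to HFCFD12W+T10W, that of 3 of 10 was higher, beside 13.4% of genes with a higher and 17.3% with a lower one. Tlr2 differed by 1.66 ± 0.45 (adjusted p = 0.0060), Il1b by 1.99 ± 0.64 (adjusted p = 0.0192) and Il1rn by 1.73 ± 0.52 (adjusted p = 0.0129). For Il1b the sign turned, from -1.66 in HFCFD2W without the filter to 0.69 and 0.36 in the later experiments, where the gene was not called, and the values rest on the 11 counts of HFCFD2W knockout mice. Il1b failed the count filter within HFCFD2W and entered this fit through its counts in the tamoxifen groups. Its calls in this fit are therefore not used as support. Without 1 of the mice, the Il1b difference of HFCFD12W+T10W was lost only without HFCFD2W Cebpa fl/fl mouse 3 (adjusted p = 0.0557), and the Tlr2 difference of HFCFD8W+T10D was lost in 3 of 20 fits (adjusted p up to 0.0743). Between the 2 tamoxifen experiments, Il18 was the 1 gene called, with a lower log2 fold change in HFCFD12W+T10W (difference -0.64 ± 0.19, adjusted p = 0.0289, from 0.32 to -0.29, beside 5.49% of genes with a lower and 4.97% with a higher one), and 10 of 20 fits without 1 mouse lost it. These comparisons share both the control and the knockout mice of the experiment they have in common, so they are not independent.

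Tlr4, which was called within each experiment, had interaction values of -0.20 ± 0.39 and 0.19 ± 0.42 against HFCFD2W, with adjusted p of 0.79 and 0.77. The intervals are wide, so these values do not show equal effects. Cd14 and Tnfaip3, called in later experiments and not in HFCFD2W, did not pass the test of the difference (0.97 ± 0.49, adjusted p = 0.14, and 0.66 ± 0.47, adjusted p = 0.30, for HFCFD12W+T10W minus HFCFD2W).

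Levels also differed between experiments within Cebpa fl/fl mice. Against HFCFD2W, controls of HFCFD8W+T10D had higher levels of 9 of the 10 genes and a lower level of 1, Il18, beside 22.2% of 12964 genes called higher and 21.5% lower. The log2 differences of the 9 ran from 1.17 ± 0.23 for Ly96 to 2.38 ± 0.55 for Nlrp3, with Cd14 at 2.29 ± 0.34, Tlr4 at 2.07 ± 0.30, Tnfaip3 at 1.95 ± 0.33 and Il1rn at 1.88 ± 0.36. Of the 9, only Tlr2 overlapped between the groups of mice, through HFCFD2W mouse 4 at 3.86 CPM, while 13.5% of all genes were higher and 15.2% lower without overlap. In HFCFD2W controls, Nlrp3, Casp1 and Il1b held only 0 to 3, 3 to 9 and 2 to 12 counts per library. They failed the count filter within HFCFD2W and entered the fit of all libraries through the other groups. Their differences here are therefore not used as support. Il18 was 0.70 lower on the log2 scale (log2 difference -0.70 ± 0.14, adjusted p = 0.000168) with no overlap, from 7.27, 7.27, 7.57, 9.52 and 9.08 CPM to 5.79, 6.08, 4.51, 4.26 and 4.42 CPM. In HFCFD12W+T10W controls, Il18 was higher again than in HFCFD8W+T10D controls, by 0.71 ± 0.14 (adjusted p = 0.000932), and it was the only 1 of the 10 called there, beside 11.4% of genes called in either direction. In knockout mice, the only gene called between HFCFD12W+T10W and HFCFD8W+T10D was Il1rn, higher by 0.66 ± 0.25 (adjusted p = 0.0483, beside 13% of genes called higher and 27.7% in either direction), and 8 of 10 fits without 1 mouse lost that call.

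Placed in order of their mean CPM over the 6 groups, 16 of the 50 neighbouring pairs of groups differed at an adjusted p under 0.05 in the joint fit of all libraries, beside 10.9% of such pairs over all genes. The order was set from the same means, and most steps lie between experiments. Steps between genotypes can differ from the calls above, which come from fits within an experiment. For Tlr2, both HFCFD2W groups were lowest (2.18 in knockout, 2.5 in control mice) and did not differ. The controls of HFCFD12W+T10W (5.39) and HFCFD8W+T10D (5.73) followed and did not differ from each other, and the knockout groups of HFCFD8W+T10D (14.4) and HFCFD12W+T10W (15.1) were highest and did not differ. Cd14 had the same 3 tiers, with HFCFD2W at 1.27 and 1.60, controls at 4.36 and 6.26, and knockout groups at 10.9 and 12.9 CPM. Tnfaip3 had them too, at 1.91 and 2.17, at 7.40 and 8.07, and at 13 and 14.5 CPM. Il1rn stepped up once more, since its top groups, HFCFD8W+T10D knockout at 11.7 and HFCFD12W+T10W knockout at 18.6 CPM, differed.

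Tlr4 began at 1.03 CPM in HFCFD2W controls, below HFCFD2W knockout mice at 2.19, and controls of HFCFD12W+T10W at 3.00 and HFCFD8W+T10D at 4.42 did not differ from their neighbours below. The step to the knockout groups at 7.18 and 7.96 CPM passed the test. Casp1 and Nlrp3 each had 1 step between neighbours that passed, below HFCFD8W+T10D knockout mice (4.40 CPM) for Casp1 and below HFCFD12W+T10W controls (0.857 CPM) for Nlrp3. Il1b had 2, below HFCFD2W controls (0.889 CPM, against knockout mice of that experiment) and below HFCFD12W+T10W controls (1.90 CPM), and its highest groups, HFCFD8W+T10D knockout at 3.81 and control at 2.42 CPM, did not differ (adjusted p = 0.11). Il1b and Nlrp3 failed the count filter within HFCFD2W, so their steps from those groups rest on few counts. Ly96 ran from 1.78 to 4.05 CPM over the 6 groups with no step that passed. Il18 had a different order, from HFCFD8W+T10D controls at 5.01 CPM to HFCFD2W knockout mice at 8.48 CPM, with 1 step below HFCFD2W controls at 8.14 CPM.

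The genes whose log2 CPM followed those described here most closely over the 30 libraries were found among 12103 genes with a mean of at least 1 CPM. These correlations describe libraries of 6 groups that share condition and depth. Tlr2 was closest to Marcks (Pearson r = 0.956), Tlr4 to Tlr8 (0.957), Cd14 to Ccl6 (0.973) and next to C1qa and Spi1, and Casp1 to Srgn (0.942). Il1rn was closest to Tnfaip3 (0.948), and Tnfaip3 to Ptprc (0.951), which encodes the leukocyte antigen CD45. Il1b was closest to Irf1 (0.877), Nlrp3 to Ehbp1l1 (0.899) and Ly96 to Pnrc1 (0.776). Il18 ran against the other 9 genes, with r from -0.56 to -0.40. With the 6 group means subtracted, these relations were weaker: the closest genes were Snx20 for Tlr2 (0.838), Ctsc for Cd14 (0.833), Plekhf2 for Il1rn (0.739) and Atp8b2 for Tnfaip3 (0.872), and the median r of Il18 with the other 9 was 0.18.

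Markers of leukocytes moved with the groups too. The 13 macrophage and monocyte markers summed to 227 to 314 CPM in Cebpa fl/fl and 275 to 430 CPM in knockout livers of HFCFD2W. They summed to 644 to 1211 and 1111 to 2265 CPM after 10 days and to 325 to 1002 and 1006 to 1199 CPM after 10 weeks of tamoxifen, with 0 of the 13 at the floor of 3 counts in any group. The ratio of knockout to control means was 1.35, 1.63 and 1.46, beside 0.872, 2.52 and 2.80 for Tlr2, 2.14, 1.80 and 2.39 for Tlr4, 1.26, 2.06 and 2.49 for Cd14 and 0.811, 2.07 and 2.74 for Il1rn. In HFCFD12W+T10W the other ratios were 0.795 for Il18, 0.900 for Ly96, 1.26 for Il1b, 1.80 for Tnfaip3, 2.05 for Nlrp3 and 2.24 for Casp1. The sum is carried by a few abundant markers, and the median log2 fold change of the markers tested was 0.38, 0.99 and 1.10, beside 0.19, 0.79 and 1.12 for the genes described here. Of these markers, 3 of 9 tested, 9 of 13 and 9 of 13 were called higher, and 2 lower in HFCFD12W+T10W. Over all genes tested, 8.6%, 10.3% and 27.4% were called higher, and 23.8% lower in HFCFD12W+T10W. The most abundant of the markers was Cd5l in 5 groups, and Lyz2 (305 CPM) in HFCFD12W+T10W knockout livers. Ptprc went from 4.16 to 4.57 CPM, from 14.6 to 34.2 and from 13.9 to 34.5. Knockout mouse 2 of HFCFD8W+T10D had the highest marker sum, 2265 CPM, and also the highest Tlr2, Tlr4, Cd14, Il1rn, Il18, Casp1, Nlrp3 and Tnfaip3 of its group.

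Other leukocyte lists moved as well. Neutrophil markers (8 genes, of which 0 to 5 were at the floor by group) went from 1.40 to 2.54, from 9.80 to 10.1 and from 6.05 to 35.9 CPM in the mean sum of control and knockout livers of the 3 experiments, led by S100a9 in all groups but HFCFD2W controls (Csf3r). The mean of 9.80 CPM rests on HFCFD8W+T10D Cebpa fl/fl mouse 1 at 27.7 CPM, without which it was 5.33 CPM. Dendritic cell markers (Zbtb46 or Itgax most abundant) went from 3.92 to 5.20, from 7.18 to 17.4 and from 6.51 to 26.7 CPM, and lymphocyte markers (Cd4 or Cd8a) from 3.82 to 4.31, from 5.01 to 6.97 and from 4.09 to 10.7 CPM. Hepatocyte markers had ratios of 1.10, 0.706 and 0.598. Alb carried much of that sum, going from 77483 to 35021 CPM in HFCFD12W+T10W. Of the 8 hepatocyte markers, 0, 4 and 4 were called lower and 0 higher. Of all genes tested, 8.09%, 6.85% and 23.8% were called lower. Cholangiocyte markers, led by Spp1, went from 47.8 to 536, from 48.7 to 257 and from 50.2 to 847 CPM. Spp1 made up most of that sum. The paper reports that Cebpa loss induces Spp1 mostly in hepatocytes, so the full sum is not a measure of cholangiocytes. The other 5 markers went from 4.04 to 5.17, from 7.49 to 11.2 and from 4.24 to 47.3 CPM. Stellate cell markers, led by Dcn, from 181 to 193, from 346 to 431 and from 291 to 644, and endothelial markers, led by Ptprb, from 180 to 187, from 254 to 219 and from 226 to 197. The part of these cell markers in the levels of the 10 genes was not tested.

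**Figure D4:**
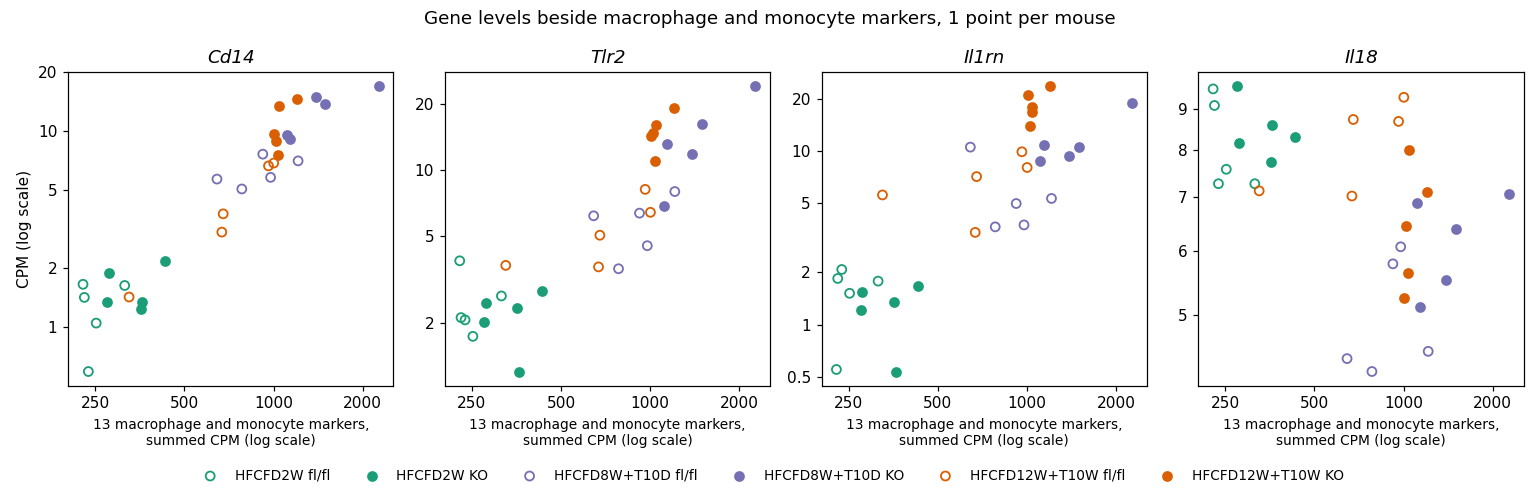
CPM of Cd14, Tlr2, Il1rn and Il18 against the summed CPM of 13 macrophage and monocyte markers, 1 point per mouse, log axes; colors are experiments, open points Cebpa fl/fl and filled points knockout mice. Cd14, Tlr2 and Il1rn of HFCFD12W+T10W knockout mice lie above their controls. The marker sums of these controls, 325 to 1002 CPM, are all below the 1006 to 1199 CPM of the knockout mice. Il18 spans 4.26 to 9.59 CPM with no common rise.

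Other genes of the same pathways were read from 5 lists, in which 5 of 48, 19 of 57 and 38 of 60 tested genes were called in the 3 experiments, beside 16.7%, 17.1% and 51.1% of all genes called in either direction. Among 13 other Toll-like receptors and accessory proteins, 0 were higher and 2 lower of 9 tested in HFCFD2W. After 10 days of tamoxifen 8 were higher and 1 lower, and after 10 weeks 10 and 2, of 13 tested. The median log2 fold change of that list was -0.01, 0.98 and 1.43. By direction, 8.6%, 10.3% and 27.4% of all genes tested were called higher in the 3 experiments, and 8.09%, 6.85% and 23.8% lower. Tlr13, a sensor of bacterial ribosomal RNA, rose by 1.65 ± 0.31 and 1.95 ± 0.19 in the tamoxifen experiments (adjusted p = 0.00353 and 4.41e-06), and Ly86, the partner of the receptor CD180, by 1.40 ± 0.27 and 1.48 ± 0.18. Tlr5, the flagellin receptor, was the gene of the list called lower in all 3 experiments. Its log2 fold changes were -1.45 ± 0.17, -1.16 ± 0.29 and -1.18 ± 0.30, from a control level of 15.4, 5.27 and 9.64 CPM. Tlr12 was the other gene lower in HFCFD2W (-0.61 ± 0.18, adjusted p = 0.0333).

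Of 14 adaptors and kinases downstream of these receptors, 0 of 12 tested were called in HFCFD2W. Then 2 were lower and 0 higher after 10 days of tamoxifen, and 3 were lower and 2 higher after 10 weeks, of 14 tested. The list medians were 0.07, -0.08 and -0.13. Over all genes tested, 8.6%, 10.3% and 27.4% were called higher in the 3 experiments, and 8.09%, 6.85% and 23.8% lower. Tollip, an inhibitor of TLR signaling, was lower in both tamoxifen experiments (log2 fold change -0.35 ± 0.08 and -0.49 ± 0.07). Map3k7, which encodes the kinase TAK1, was lower in HFCFD8W+T10D (-0.34 ± 0.09, adjusted p = 0.0174), and Ticam2, the adaptor of TLR4 in endosomes, was higher in HFCFD12W+T10W (1.95 ± 0.30, adjusted p = 0.000167). Among 17 NF-kappaB subunits, kinases and inhibitors, 1 was higher and 1 lower of 15 tested in HFCFD2W, while 3 and 1 of 17 and then 6 and 3 of 17 were in the tamoxifen experiments. Tnip1, which binds A20 and acts with it, rose by 1.18 ± 0.16 and 1.39 ± 0.14, and Chuk, which encodes the kinase IKKα, fell by a log2 fold change of -0.63 ± 0.10 and -0.96 ± 0.08, in the 2 tamoxifen experiments. In HFCFD2W, Bcl3 was lower (-1.10 ± 0.18, adjusted p = 0.00139) and Ikbkg, which encodes NEMO, was higher (0.34 ± 0.10, adjusted p = 0.0354).

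Of the 13 other inflammasome and pyroptosis genes, 1 of 7 tested was higher in HFCFD2W (Nek7, which binds NLRP3, 0.22 ± 0.07, adjusted p = 0.0406), and 1 higher and 1 lower of 8 and 4 higher and 4 lower of 11 were found in the tamoxifen experiments. Pycard, the adaptor between NLRP3 and caspase-1, rose by 1.15 ± 0.32 in HFCFD8W+T10D (adjusted p = 0.0257, lost in 6 of 10 fits without 1 mouse), and Casp4, the sensor of cytosolic lipopolysaccharide, rose by 2.33 ± 0.30 in HFCFD12W+T10W. Nlrp6 fell in both, with log2 fold changes of -0.61 ± 0.15 and -1.42 ± 0.08. Of the 12 other IL-1 family ligands and receptors, 5 had enough counts, and 0 were called in HFCFD2W, 1 higher and 1 lower in HFCFD8W+T10D and, in the longest experiment, 2 and 2. Of all genes tested in HFCFD2W, HFCFD8W+T10D and HFCFD12W+T10W, 8.6%, 10.3% and 27.4% were called higher, and 8.09%, 6.85% and 23.8% lower. Il1r1, the receptor through which IL-1β signals, was lower in HFCFD8W+T10D (-1.06 ± 0.16, adjusted p = 0.000952), and Il1rap, the accessory chain of that receptor, was lower in HFCFD12W+T10W (-1.24 ± 0.10, adjusted p = 1.13e-06). Il33 was higher in HFCFD12W+T10W (2.42 ± 0.30), and Il18bp, which neutralizes IL-18, was higher in HFCFD8W+T10D (0.85 ± 0.17, adjusted p = 0.00619).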

How the data were processed

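Liver mRNA of 30 mice was sequenced with a stranded poly(A) kit. Per the labels, the submitters' processing notes name Trimmomatic 0.36, STAR 2.5.1, Picard 1.84, RSEM 1.2.22, DESeq2 and the build mm10. The authors deposited expected counts from RSEM per gene and TPM per library, without pooling, and a table of signal, CPM with TMM scaling, for 15010 genes. Their FPKM table was not used. RSEM shares ambiguous reads among genes, so 3.25% of expected counts were not whole and all were rounded. With R 4.3.3 and edgeR 4.0.16, genes were filtered by filterByExpr, scaled by TMM and tested by quasi-likelihood with Benjamini-Hochberg adjustment within each experiment, and in 1 fit of 6 groups for interactions and for groups of different experiments. Log2 CPM for correlations used a prior count of 2. Alternatives were no filter, upper quartile scaling, DESeq2 1.42.0, robust quasi-likelihood, a fold change over 2, the joint fit, the replicate number as a block, limma 3.58.1 on log2 of the authors' CPM plus 1, and each mouse left out. Those for the group order, those for the pathway lists other than DESeq2 and no filter, and marker sums without Spp1 or without 1 mouse, were chosen after seeing the data.

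At this depth a library with 3 counts or fewer of a gene is at the floor, and counting intervals (exact, 95%) cover counting error only. The 10 genes and all lists were chosen with earlier results of these data known. Named are the 10 genes, Cebpa, the 2 genes of each pathway list and experiment with the smallest adjusted p under 0.05, the genes most correlated with each, and the most abundant gene of marker lists; Tlr5 in the tamoxifen experiments and Ptprc levels were chosen after their values were seen. The steps were tested on simulated data. Some of the most correlated genes are not reported here.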

Additional observations from a re-analysis of the deposited data

Results flagged for a closer look

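In 5 of the 60 groups of 5 mice (10 genes in 6 groups), 1 mouse stood apart from the other 4 by Dixon's test, which by chance flags about 1 group in 20. Tlr4 was at 1.54 CPM in HFCFD12W+T10W Cebpa fl/fl mouse 1, where the next mouse was at 3.10. Il1rn was at 19 CPM in HFCFD8W+T10D knockout mouse 2 (next 10.8) and at 10.5 CPM in Cebpa fl/fl mouse 5 of that experiment (next 5.33). Nlrp3 was at 0.897 CPM in HFCFD2W knockout mouse 3 (next 0.268), which is 8 counts, and Tnfaip3 at 14 CPM in HFCFD12W+T10W Cebpa fl/fl mouse 5 (next 7.35).

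The effect of genotype differed between experiments in 6 edgeR interaction tests, from comparisons that share mice. Compared with HFCFD2W, the log2 fold change in HFCFD8W+T10D was higher by 1.53 for Tlr2 and by 2.34 for Il1b, and in HFCFD12W+T10W higher by 1.66 for Tlr2, by 1.99 for Il1b and by 1.73 for Il1rn. For Il1b the sign turned, from a low-count decrease in HFCFD2W to increases that were not called, and the gene passed the count filter only through the tamoxifen groups. For Il18 the log2 fold change in HFCFD12W+T10W minus that in HFCFD8W+T10D was -0.64.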

How the results depend on the processing

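The calls of HFCFD12W+T10W were the steadiest: 7 to 8 genes were called when each mouse was left out, and the 7 called genes remained called under each of the 17 other settings, while a fold over 2 left out Tnfaip3. Il18 was also called there, as lower, in the joint fit (adjusted p = 0.0358) and without knockout mouse 3. The other counts, with each mouse left out, were 0 to 1 in HFCFD2W, 2 to 6 in HFCFD8W+T10D, 1 to 3, 2 to 3 and 0 to 1 for the differences of HFCFD8W+T10D and HFCFD12W+T10W from HFCFD2W and of HFCFD12W+T10W from HFCFD8W+T10D, 0 to 1 between knockout groups, and 2 to 10 for pathway genes in HFCFD2W (2 without Cebpa fl/fl mouse 4, 3 without Cebpa fl/fl mouse 1, 2 or 5 or knockout mouse 6, 10 without knockout mouse 2).

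The call of Tlr4 in HFCFD2W was lost without the filter (0 genes), under upper quartile scaling (0) and with the replicate block (0), while the joint fit and limma on the authors' CPM called 2. The Il18 difference between the tamoxifen experiments was lost with a fold over 2, without the filter, under upper quartile scaling and with the block (0 each). Il1rn between knockout groups was lost with DESeq2, robust quasi-likelihood and a fold over 2, and Il18 between controls with a fold over 2 (0 each). With 1 mouse left out, the call of Tlr4 was lost without Cebpa fl/fl mouse 1, 4 or 5 or knockout mouse 3, 4, 5 or 6. The Il18 difference was lost without Cebpa fl/fl mouse 3, 4 or 5 of either tamoxifen experiment, knockout mouse 3 or 4 of HFCFD8W+T10D or knockout mouse 4 or 5 of HFCFD12W+T10W, and Il1rn between knockout groups without mouse 1, 3, 4 or 5 of HFCFD8W+T10D or mouse 2, 3, 4 or 5 of HFCFD12W+T10W. In HFCFD8W+T10D minus HFCFD2W, 1 gene was called without HFCFD8W+T10D Cebpa fl/fl mouse 4, HFCFD2W Cebpa fl/fl mouse 4 or HFCFD2W knockout mouse 6.

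With the replicate block, 0 genes were called in HFCFD8W+T10D minus HFCFD2W, 1 in HFCFD12W+T10W minus HFCFD2W and 2 pathway genes in HFCFD2W, and it changed no other count by over 1.5 times. Replicate numbers did not pair mice (same-number correlations from -0.32 to 0.22), and a block could not be fitted between groups of different experiments. Uncalled values changed sign for Tlr2 in HFCFD2W (log2 0.025 with the block and -0.29 to 0.028 when 1 mouse was left out, above 0 without Cebpa fl/fl mouse 4) and for Ly96 (-0.22 to 0.022 in HFCFD8W+T10D, above 0 without Cebpa fl/fl mouse 2, and -0.29 to 0.031 in HFCFD12W+T10W, above 0 without Cebpa fl/fl mouse 4). The cause was not tested.

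Upper quartile scaling raised the median of all genes by 0.13 in HFCFD12W+T10W minus HFCFD2W, and the share of called genes that were higher from 43.6% to 61.6%. That share went from 39.6% to 52.6% for HFCFD8W+T10D minus HFCFD2W, from 47.5% to 66.5% for HFCFD12W+T10W minus HFCFD8W+T10D and from 55.2% to 45% between the controls of these. Depth limited Il1b, Casp1 and Nlrp3 in HFCFD2W.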
